A study of Mus musculus with 8 samples.

Results

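The comparison described here sets the 4 arrays richest in transthyretin (Ttr) against the 4 poorest, out of 8 arrays of mouse striatum, whatever treatment the mice had received. The arrays were ranked by the log2 value of the only named Ttr probe set, so the arrays were chosen by a measured value, every difference between the 2 sets is a description, and no test of that split is given. The Ttr-rich arrays were those of non-acupoint mouse 2, acupoint mouse 1, MPTP mouse 1 and non-acupoint mouse 1. The Ttr-poor arrays were those of acupoint mouse 2, control mouse 2, control mouse 1 and MPTP mouse 2. All 8 mice were male C57BL/6 mice, an inbred laboratory strain, 6 weeks old, with 2 mice in each of 4 groups. The acupoint mice were injected over 4 weeks, once per 24 h, with 20 mg/kg of MPTP. They had 14 needling sessions, 48 h apart, at acupoints LR3 (to 1 mm) and GB34 (to 3 mm). The non-acupoint mice received the same MPTP and were needled at the hips (3 mm deep) on the same schedule, and the MPTP mice received it with no needling. The control mice were given saline daily instead. The injections were intraperitoneal. MPTP is a neurotoxin that damages the dopamine axons ending in the striatum and is used to model parkinsonism. Each array held RNA from the striata of both hemispheres of 1 mouse.

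The choroid plexus is a sheet of epithelium, with vessels and connective tissue inside it, that hangs in the brain ventricles and secretes cerebrospinal fluid. The lateral ventricle runs along the striatum. The epithelium makes transthyretin, which carries thyroid hormone and, through retinol-binding protein, vitamin A, in amounts that other cells of the brain do not approach. It moves ions and water from blood to ventricle and takes up folate and other nutrients. Ependymal cells, which are ciliated, line the walls of the same ventricles. The thalamus, a relay nucleus of excitatory neurons, lies behind and medial to the striatum.

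Ttr had log2 values of 13.49, 13.42, 13.39 and 13.20 in the Ttr-rich arrays, in the order of the list above, against 9.98, 8.88, 8.63 and 8.12 in the Ttr-poor arrays. The lowest rich array and the highest poor array, on either side of the division, were 3.22 apart. The rich arrays lay within 0.286 of each other, whereas the poor arrays spread over 1.86. Ttr ranked between 36 and 54 among 35557 probe sets in the rich arrays, and between 2480 and 8541 in the poor arrays. Ranking the arrays by Kcnj13, or by the mean of 57 other choroid plexus genes, gave the same 4 rich arrays. Kcnj13 had the largest difference under this split, and the gene list was drawn up with the Ttr result known. The shared ranking is therefore no independent support for the split. The rich set held both non-acupoint mice, the poor set held both controls, and the MPTP and acupoint groups gave 1 mouse to each set. Needling at the hips in MPTP-treated mice, against saline, and the level of Ttr can therefore not be told apart in these arrays, while within the MPTP and acupoint groups the 2 sets can be compared between mice of the same treatment.

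**Figure D1:**
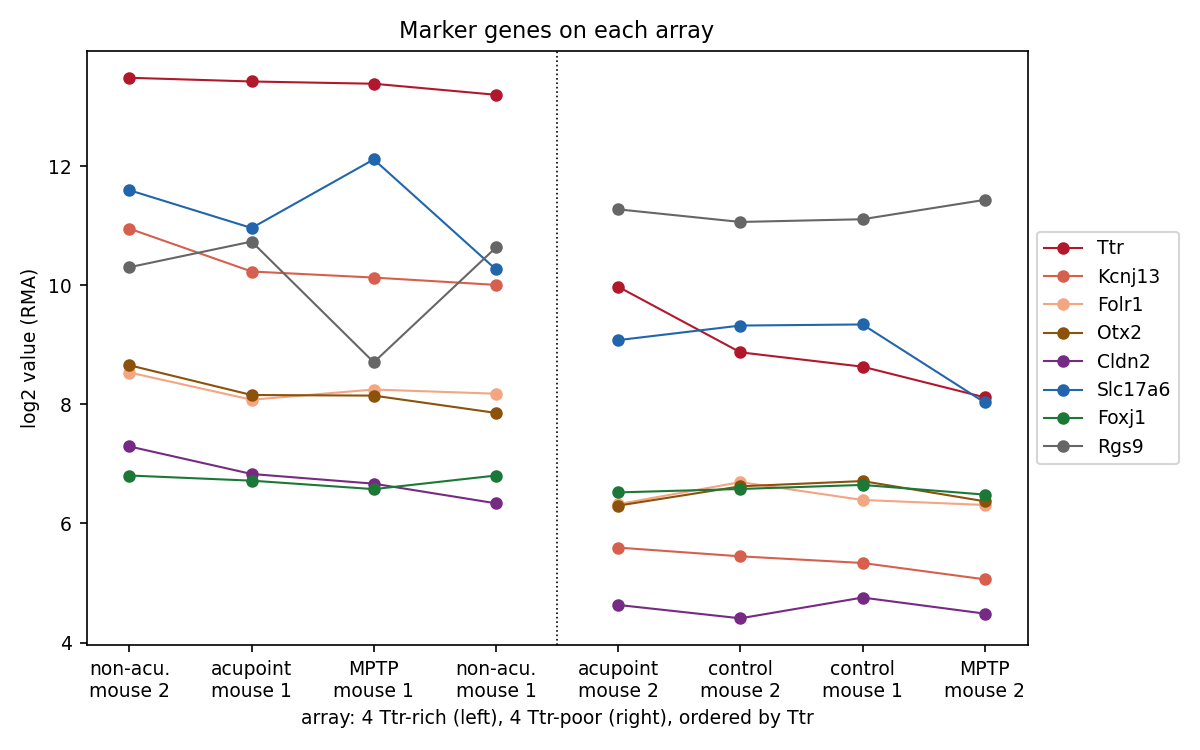
Log2 value (vertical axis) of 8 marker genes on each of the 8 arrays, with the 4 Ttr-rich arrays left of the dotted line and the 4 Ttr-poor arrays right of it, ordered by Ttr; each point is 1 array. The choroid plexus genes Ttr, Kcnj13, Folr1, Otx2 and Cldn2 step down at the line, the ependymal factor Foxj1 stays between 6.49 and 6.81 on all arrays, and MPTP mouse 1 has the highest Slc17a6 and the lowest Rgs9.

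Across all 21789 probe sets with 1 gene symbol, those of the choroid plexus had the largest positive differences. A probe set was counted as higher when its mean was at least 1 higher in the Ttr-rich arrays on the log2 scale and all 4 rich arrays lay above all 4 poor ones. In all, 85 probe sets (0.39% of those compared), for 83 genes, were counted as higher. By the reverse rule 9 probe sets (0.0413%), for 8 genes, were lower. Separation alone, with no limit on size, held for 1339 probe sets above (6.15%) and 997 below (4.58%), and the median difference over all probe sets was -0.003. These shares describe a split by a measured value, and they were not tested. Of the 85 higher probe sets, 29 belonged to the 3 lists of choroid plexus genes, 8 to thalamus markers, 5 to other lists and 43 to no list. In 43 of the 85 (0.197% of those compared), each of the 3 differences inside this comparison reached 1. They were MPTP mouse 1 minus mouse 2, acupoint mouse 1 minus mouse 2, and the mean of non-acupoint mice minus that of controls. The rule already made all 3 positive, so they are no further support. Without MPTP mouse 1, which stood apart in its striatal and thalamic genes, 71 probe sets were higher (0.326%), 67 of them among the 85. Less RNA per cell and fewer cells of a type cannot be told apart in such bulk tissue.

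Among 58 measured choroid plexus genes, 57 had a higher mean in the Ttr-rich arrays and 46 were separated, against 6.15% of all probe sets. Of them, 29 were also 1 or more higher, against 0.39% of all probe sets. The list was drawn up with the Ttr result known, so these counts are no independent support. Their median difference was 0.99. Of the 61 genes listed, Enpp2, Prlr and Lmx1a were not analysed here. All 29 stayed higher by the same rule without MPTP mouse 1, and the copper transporter Slc31a1 joined them.

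The secreted proteins and enzymes of the choroid plexus had a median difference of 1.63. Of 14, 10 were counted as higher and 11 were separated, where the shares over all probe sets were 0.39% and 6.15%. Kl, which encodes klotho, a membrane and shed co-receptor for a phosphate-regulating growth factor, had log2 values of 9.17, 8.67, 8.55 and 8.37 in the Ttr-rich arrays, against 5.96, 5.55, 5.64 and 5.84 in the Ttr-poor arrays. The 2 sets did not come near each other, and the difference of 2.95 (SE 0.20, n = 4 each) is 7.71-fold on a linear scale. Sostdc1, a secreted antagonist of BMP and Wnt signals, had 9.34, 8.96, 8.34 and 8.51 in the rich arrays, against 6.09, 6.03, 6.22 and 5.55 in the poor arrays. Its 3 differences were 2.79 between the MPTP mice, 2.87 between the acupoint mice and 2.80 for non-acupoint minus control, so it was about the same in each. F5, coagulation factor V, was higher by 2.24 (SE 0.25) and Ecrg4, a precursor of secreted peptides, by 1.95 (SE 0.25). Rdh5, a retinol dehydrogenase, was higher by 1.73 and Lbp, which binds bacterial lipopolysaccharide, by 1.55. The growth factor Igf2 had 9.42, 8.64, 8.73 and 8.80 in the rich arrays, against 7.69, 7.77, 7.80 and 7.70 in the poor arrays, and its binding protein Igfbp2 was higher by 1.71 (SE 0.19). Ace, the angiotensin-converting enzyme, was just over the limit of size at 1.01 (SE 0.20). Other genes of this list differed little: Clu, which encodes clusterin, by 0.08 (SE 0.04), Car12, a carbonic anhydrase, by 0.11 (SE 0.24) and Bmp7 by 0.06 (SE 0.06).

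Transporters and channels had a median difference of 0.94, with 11 of 25 counted as higher and 21 of 25 separated. Over all probe sets these shares were 0.39% and 6.15%. Kcnj13, the inward rectifier potassium channel Kir7.1 of the apical membrane, had the largest difference of any named probe set. Kcnj13 had 10.95, 10.23, 10.13 and 10.01 in the Ttr-rich arrays, against 5.59, 5.45, 5.34 and 5.06 in the Ttr-poor arrays, a difference of 4.97 (SE 0.24), or 31.4-fold, where that of Ttr itself was 4.47 (SE 0.40), or 22.2-fold. Kcnj13 followed the order of Ttr through all 8 arrays. Kcne2, a regulatory subunit of potassium channels, was higher by 2.06 (SE 0.21) and Slc4a5, a sodium bicarbonate cotransporter, by 1.88 (SE 0.21). Folr1, the folate receptor through which folate reaches the cerebrospinal fluid, had 8.54, 8.08, 8.25 and 8.18 in the rich arrays, against 6.32, 6.70, 6.39 and 6.31 in the poor arrays. Aqp1, the water channel of the apical membrane, had 7.65, 7.09, 7.28 and 7.10 in the rich arrays, against 5.90, 5.67, 6.07 and 5.57 in the poor arrays. Each set was tight for these 2 genes, with SDs between 0.18 and 0.26. Steap1, of a family of metal reductases, was higher by 2.12, the chloride channel protein Clic6 by 1.47, the sulphate transporter Slc13a4 by 1.37, the organic anion transporter Slco1a5 by 1.24, the monoamine transporter Slc29a4 by 1.16 and the cation channel Trpm3 by 1.08. The anion exchanger Slc4a2 stood just under the limit at 0.99 (SE 0.15). Slc12a2, the sodium-potassium-chloride cotransporter, was higher by 0.48 (SE 0.10), and Atp1b1, a subunit of the sodium pump that neurons also make in quantity, by 0.11 (SE 0.10).

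Of the genes for junctions, cytoskeleton, receptors and transcription factors, 8 of 19 were counted as higher and 14 were separated, with a median of 0.43. Over all probe sets these shares were 0.39% and 6.15%. Cldn2, the claudin that forms a pore for cations and water in leaky epithelia, had 7.29, 6.83, 6.67 and 6.34 in the Ttr-rich arrays, against 4.63, 4.41, 4.76 and 4.49 in the Ttr-poor arrays. Its difference of 2.21 (SE 0.21) compares with 1.49 (SE 0.23) for Cldn1, 0.09 (SE 0.13) for Cldn3 and -0.19 (SE 0.17) for Cldn5, the claudin of brain endothelium. Otx2, a homeodomain transcription factor needed for the choroid plexus to form, had 8.66, 8.16, 8.15 and 7.86 in the rich arrays, against 6.30, 6.62, 6.71 and 6.37 in the poor arrays. The calmodulin-like gene Calml4 was higher by 1.70, the collagen gene Col8a1 by 1.38, the membrane protein gene Tmem72 by 1.28, the sulphatase gene Sulf1 by 1.08 and the keratin gene Krt18 by 1.00. Htr2c, the serotonin receptor that the choroid plexus shares with neurons, was at 10.45 on average in the rich arrays and 10.11 in the poor arrays.

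Within the rich set, non-acupoint mouse 2 had the highest value for all 29 of these choroid plexus genes. The lowest of the 4 was non-acupoint mouse 1 for 16 genes, MPTP mouse 1 for 9 and acupoint mouse 1 for 4. The 4 rich arrays spanned a median of 0.78 per gene, and the 4 poor arrays 0.41. Among the poor arrays, where acupoint mouse 2 had the highest Ttr by 1.10, that array was the highest for 10 of the 29 genes, control mouse 1 for 12, control mouse 2 for 5 and MPTP mouse 2 for 2. The order by Ttr was thus not the order of the other genes in the poor set.

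Because Otx2 was itself among the 29 genes, their promoters were searched for its binding letters, TAATCC, on both strands (GGATTA on the other), a motif chosen after the values were seen. Promoters are from RefSeq (GRCm38.p6), from 250 bases before to 50 after each start site. They were on hand for 23 of the 29 genes, and 3 of these held the letters in at least 1 promoter, as did 8.14% of 27025 genes in the table and 7.06% of 32851 promoters. The promoters of Kcnj13, which had the largest difference, and of Ace, one of the 3 with a match, are shown, with the match in capitals. They lie at chr1:87394680-87394979, on the minus strand, and at chr11:105967698-105967997, on the plus strand.
Kcnj13: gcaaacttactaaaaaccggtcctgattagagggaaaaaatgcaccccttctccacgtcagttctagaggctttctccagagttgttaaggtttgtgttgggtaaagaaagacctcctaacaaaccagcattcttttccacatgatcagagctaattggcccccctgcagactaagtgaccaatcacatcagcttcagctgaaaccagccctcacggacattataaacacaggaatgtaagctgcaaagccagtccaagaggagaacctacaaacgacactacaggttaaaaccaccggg
Ace: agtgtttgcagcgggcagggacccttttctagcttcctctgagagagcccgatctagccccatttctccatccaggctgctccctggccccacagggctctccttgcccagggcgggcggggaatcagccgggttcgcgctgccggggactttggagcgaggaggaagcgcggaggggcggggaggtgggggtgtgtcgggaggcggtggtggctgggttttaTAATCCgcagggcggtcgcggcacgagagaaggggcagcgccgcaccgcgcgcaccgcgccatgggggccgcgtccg
The match in Ace begins at position -27 from the start site, and the Kcnj13 window has none.

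Thalamus markers also ran with the split, but in other proportions. All 18 were higher on average in the Ttr-rich arrays, with a median difference of 1.34. Of these, 8 were counted as higher (0.39% of all probe sets were). Slc17a6, the vesicular glutamate transporter VGLUT2 of thalamic and other subcortical neurons, had 11.60, 10.96, 12.12 and 10.27 in the Ttr-rich arrays, against 9.08, 9.32, 9.34 and 8.03 in the Ttr-poor arrays. Tcf7l2, a Wnt pathway transcription factor of thalamic neurons, had 9.77, 8.95, 10.56 and 8.17 in the rich arrays, against 7.76, 7.59, 7.51 and 7.01 in the poor arrays. In both genes MPTP mouse 1 was the highest and non-acupoint mouse 1 stood closest to the poor set. The axon guidance gene Ntng1 was higher by 1.70 (SE 0.59), Cbln1, a synapse organiser, by 1.55 (SE 0.35), Calb2, which encodes calretinin, by 1.54 (SE 0.27), the homeobox gene Shox2 by 1.53 (SE 0.47) and the signalling regulator Rgs16 by 1.34 (SE 0.47). Prkcd, a kinase abundant in thalamic relay neurons, had 10.48, 9.46, 11.97 and 9.22 in the rich arrays, against 9.05, 9.34, 9.41 and 7.53 in the poor arrays, so the sets overlapped.

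The 3 differences separate these 2 groups of genes as measured. For the 29 choroid plexus genes the medians were 1.67 between the MPTP mice, 1.51 between the acupoint mice and 1.70 for non-acupoint minus control. For the 8 thalamus genes they were 2.93, 1.17 and 1.18 in that order, and the MPTP difference was the largest of the 3 for all 8, against 10 of the 29 choroid plexus genes. MPTP mouse 1 had the highest value of the rich arrays for 6 of these 8 thalamus genes and non-acupoint mouse 2 for the other 2. Without MPTP mouse 1, the median of all 18 thalamus markers was 0.91, and without non-acupoint mouse 2 as well it was 0.47, with 4 of the 18 then counted as higher. That second setting was chosen after seeing the data. The 3 choroid plexus lists had medians of 1.44, 0.73 and 0.46 with both arrays left out, with 24 of 58 genes counted as higher (46 probe sets in all). Whether thalamic and choroid plexus RNA entered these samples together was not tested.

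**Figure D2:**
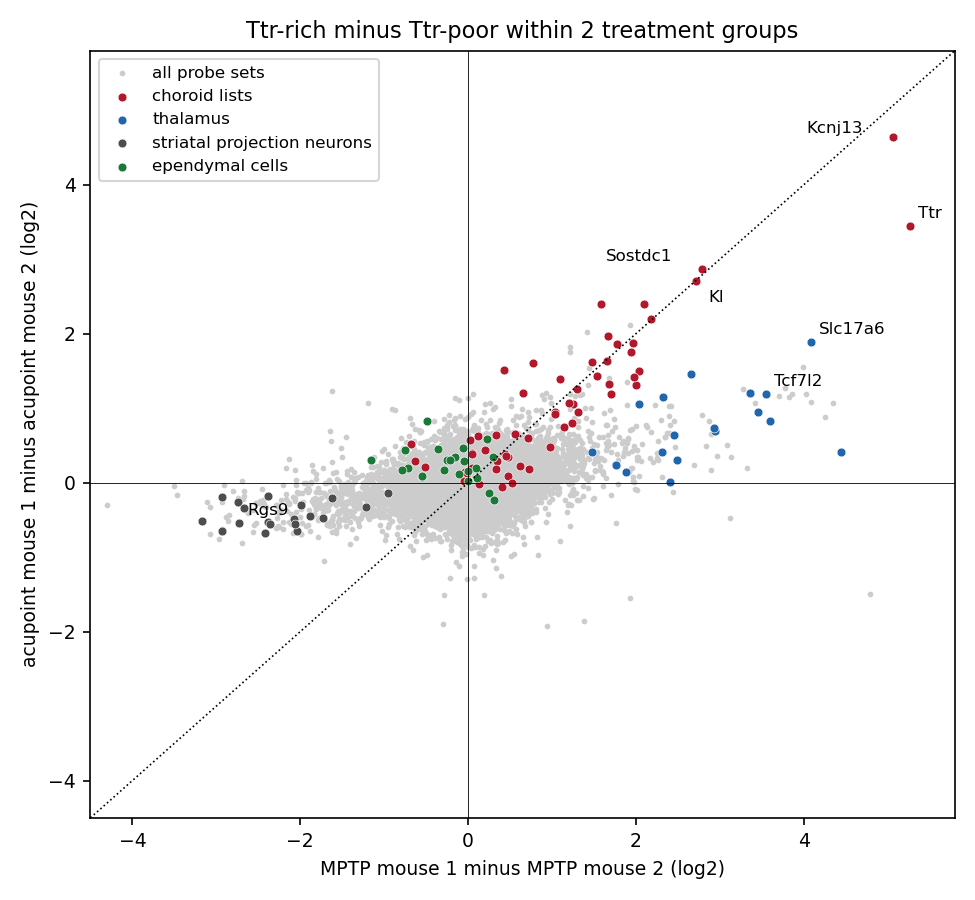
Difference between the 2 mice of a treatment, Ttr-rich minus Ttr-poor, in log2: MPTP mice on the horizontal axis and acupoint mice on the vertical, 1 point per probe set, with equality dotted. Choroid plexus genes lie on both sides of the dotted line (Kcnj13 at 5.07 and 4.64, Ttr at 5.27 and 3.45, Sulf1 at 0.43 and 1.51), thalamus markers lie below it (Slc17a6 at 4.08 and 1.88), and striatal projection neuron genes spread to the left (Rgs9 at -2.73 and -0.54).

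Markers of the ependyma, which lines the same ventricles, were higher on average in the Ttr-rich arrays for 21 of 23 genes, by small amounts. With all arrays none was counted as higher and none was separated, and the median was 0.16. Foxj1, the master factor of motile cilia, averaged 6.73 in the Ttr-rich arrays and 6.56 in the Ttr-poor arrays (difference 0.17, SE 0.06). The dynein gene Dnah6 had 7.06, 6.83, 5.51 and 6.60 in the rich arrays, against 6.00, 6.17, 5.97 and 6.00 in the poor arrays. The adenylate kinase gene Ak7 had 7.83, 7.53, 6.20 and 7.57 in the rich arrays, against 7.09, 7.14, 7.15 and 6.94 in the poor arrays. In both genes 3 of the rich arrays lay above every poor array and MPTP mouse 1 lay below. Without MPTP mouse 1, 22 of the 23 were higher on average, 12 were separated (Foxj1 among them) and the median was 0.35. Still no gene was counted as higher. Separation is easier with fewer arrays, and the share of all probe sets separated without MPTP mouse 1 is not given here. The 12 of 23 were not compared with that share, so no conclusion is drawn from them.

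Connective tissue genes followed the split in part, with 2 of 19 counted as higher, 6 separated and a median of 0.22. Over all probe sets, 0.39% were counted as higher and 6.15% were separated above. Ogn, which encodes the matrix protein osteoglycin, had 6.83, 6.07, 5.89 and 5.81 in the Ttr-rich arrays, against 4.90, 5.35, 4.94 and 4.61 in the Ttr-poor arrays. Pcolce, an enhancer of collagen processing, was higher by 1.19 (SE 0.16), and the small leucine-rich proteoglycan genes Lum and Dcn were higher by 0.86 (SE 0.19) and 0.78 (SE 0.24) without reaching the limit of size. The fibrillar collagen genes Col1a1 and Col3a1 differed by 0.17 (SE 0.11) and 0.02 (SE 0.10). Genes of vessels had a median of 0.04 over 19 genes. Plvap, which marks the fenestrated capillaries found in the choroid plexus, averaged 7.09 in the rich arrays and 7.12 in the poor arrays. Macrophages of the brain borders and MHC class II genes had a median of 0.07 over 13 genes, with the mannose receptor gene Mrc1 at 0.15 (SE 0.14). The exception in that list was Clec12a, an inhibitory lectin receptor of myeloid cells, at -0.998 (SE 0.33), just short of the limit. For red blood cells, 2 of 9 listed genes were measured, with a median of -0.05.

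**Figure D3:**
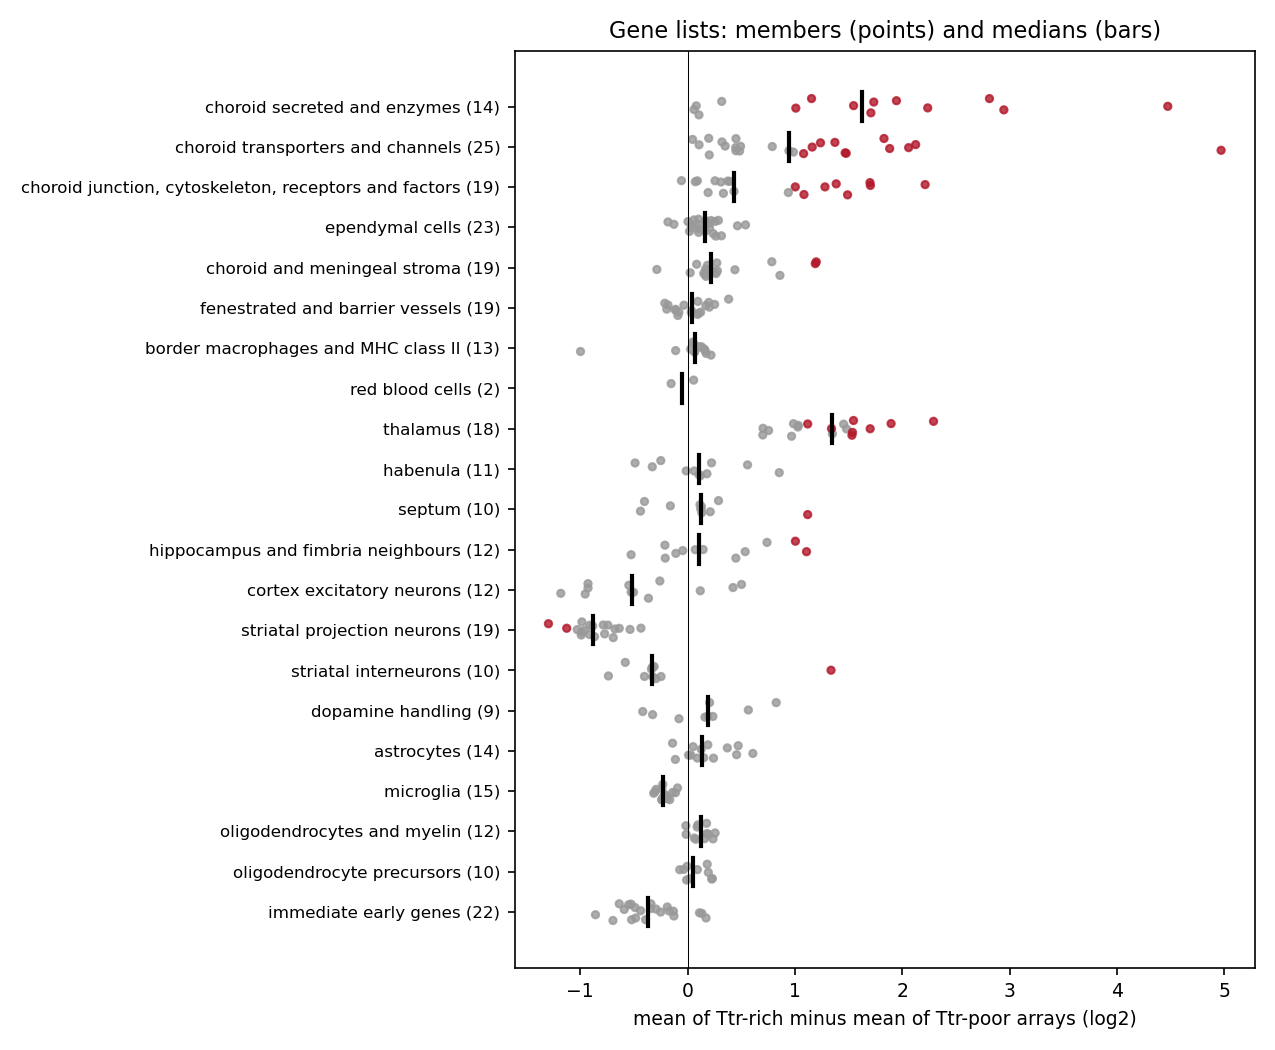
Mean of the Ttr-rich minus mean of the Ttr-poor arrays (log2, horizontal axis) for the members of 21 gene lists, 1 point per gene at its brightest probe set, in red where the gene met the limit of size with the 2 sets apart; black bars are list medians and the number of measured genes is in brackets. The choroid plexus and thalamus lists hold most red points to the right, and ependymal cells hold none.

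Genes of the striatal projection neurons were lower in the Ttr-rich arrays. All 19 had a lower mean and 14 of them were separated (4.58% of all probe sets were), but 2 reached the limit of size, with a median of -0.88. Rgs9, a regulator of dopamine receptor signalling, had 10.30, 10.74, 8.71 and 10.64 in the rich arrays, against 11.28, 11.06, 11.11 and 11.44 in the poor arrays. Gpr6, a receptor of indirect-pathway neurons, differed by -1.30 (SE 0.51). Drd1, the D1 dopamine receptor, had 9.61, 10.16, 7.93 and 10.15 in the rich arrays, against 10.41, 10.32, 10.29 and 10.68 in the poor arrays. MPTP mouse 1 was the lowest array for each of these, more than 1 below the next. Ppp1r1b, the signalling protein DARPP-32, differed by -0.99 (SE 0.53), Drd2, the D2 receptor, by -0.87 (SE 0.45) and Penk, the enkephalin precursor, by -0.68 (SE 0.42). Outside the lists, Crym, a thyroid hormone-binding protein, differed by -1.33 (SE 0.66), the retinoid X receptor gene Rxrg by -1.25 (SE 0.57), the synaptic scaffold gene Baiap2 by -1.08 (SE 0.57) and the channel-like gene Ano3 by -1.05 (SE 0.63). Outside the lists, the genes whose weakest of the 3 differences was the furthest below 0 also included the focal adhesion gene Tns1 at -0.58 (its other probe sets were higher on average in the rich arrays), the potassium channel gene Kcnj4 at -0.97 and Rbp4, the retinol carrier that transthyretin binds, at -0.73 (SE 0.22). The 9 lower probe sets were completed by Serpina9, Gpx6 and a second probe set of Ano3. Without MPTP mouse 1, none of the 21789 probe sets was lower by the rule, and the median of the striatal list was -0.44. The striatal markers nonetheless remained bright on all arrays, Penk lying between 11.32 and 13.35.

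**Figure D4:**
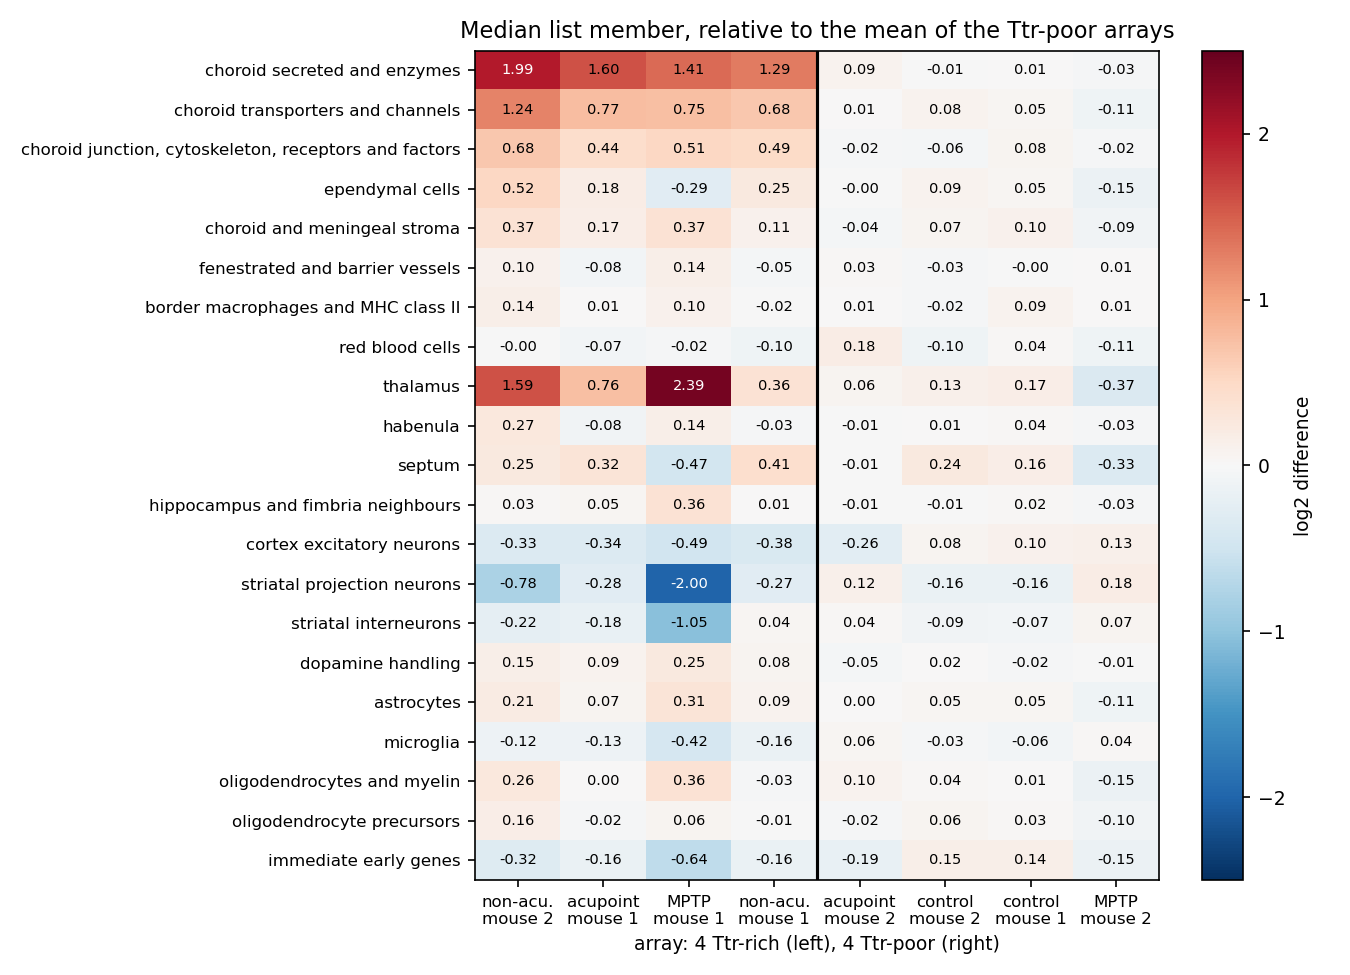
Median, over the measured members of each of 21 gene lists (rows), of the log2 value minus that gene's mean in the 4 Ttr-poor arrays, on each array (columns; Ttr-rich left of the black line). The 3 choroid plexus rows are positive on all 4 Ttr-rich arrays and highest on non-acupoint mouse 2, while the thalamus row peaks at 2.39 on MPTP mouse 1, where the striatal projection row is lowest.

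Other neurons and glia moved less. Parvalbumin, Pvalb, a calcium-binding protein of fast-spiking interneurons that thalamic reticular neurons also make, had 9.96, 9.91, 10.60 and 9.02 in the Ttr-rich arrays, against 8.89, 8.48, 8.60 and 8.18 in the Ttr-poor arrays. It was the only one of 10 interneuron genes counted as higher, and the median of the list was -0.33. Cortical excitatory neuron genes had a median of -0.51 over 12 genes. Among them Neurod6, a transcription factor of cortical pyramidal neurons, had 4.21, 4.36, 4.09 and 4.07 in the rich arrays, against 4.21, 6.18, 5.61 and 5.44 in the poor arrays, so acupoint mouse 2 was as low as the rich arrays. Immediate early genes, transcribed soon after neurons fire, had a median of -0.37 over 22 genes. Relative to the mean of the Ttr-poor arrays, their median lay between -0.64 and -0.16 in the rich arrays. Among the poor arrays it was -0.19 in acupoint mouse 2 and -0.15 in MPTP mouse 2, against 0.15 and 0.14 in control mice 2 and 1. The list thus did not divide cleanly by Ttr. Microglia markers were lower on average in all 15 cases, with a median of -0.23. Of these, 6 were separated (4.58% of all probe sets were separated below). The lipid-sensing receptor Trem2 was at -0.32 (SE 0.05). Astrocyte markers had a median of 0.14, with 0.34 between the MPTP mice and 0.07 between the acupoint mice. Of 14, 3 were separated above, as were 6.15% of all probe sets. The filament gene Gfap was at 0.47 (SE 0.18) and the connexin gene Gjb6 at 0.61 (SE 0.17), both separated. Myelin genes, oligodendrocyte precursor genes and dopamine handling genes had medians of 0.13, 0.05 and 0.19, with none separated. Markers of the habenula, which lies beside the choroid plexus of another ventricle, had a median of 0.11 with none of 11 counted as higher. The septum list had 0.13 with 1 of 10 (Zic1, which is also on the thalamus list) and the hippocampus list 0.11 with 2 of 12 (Prox1 and Cpne7). Over all probe sets, 0.39% were counted as higher. Without MPTP mouse 1 none of the hippocampus list was counted as higher, while the septum count stayed at 1.

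Of the 43 higher probe sets on no list, 14 reached 1 in each of the 3 differences and 31 had their largest difference between the MPTP mice. The 5 genes whose smallest difference was the largest were Slc2a12, Pon3, Tc2n, Abca4 and A2m. Slc2a12, the glucose transporter GLUT12, had 9.51, 9.02, 8.75 and 8.74 in the Ttr-rich arrays, against 6.91, 7.38, 7.08 and 6.82 in the Ttr-poor arrays. Its differences were 1.93 between the MPTP mice, 2.12 between the acupoint mice and 1.90 for non-acupoint minus control. Abca4, a retinoid transporter known from photoreceptors, was higher by 1.67 (SE 0.20), A2m, the protease inhibitor alpha-2-macroglobulin, by 1.55 (SE 0.22) and Pon3, a lactonase, by 1.49 (SE 0.24). Oca2, a melanosome protein of pigment cells, had 7.64, 7.16, 6.55 and 6.53 in the rich arrays, against 5.41, 5.39, 5.34 and 5.33 in the poor arrays. Slc24a5, a cation exchanger also of melanosomes, was higher by 1.33 (SE 0.25), and Lepr, the leptin receptor, by 1.02 (SE 0.19); these 2 genes were chosen after their values were seen. The phosphatase gene Ptpn3 differed in its proportions, with 4.09 between the MPTP mice, 1.08 between the acupoint mice and 1.05 for non-acupoint minus control, and each of its 3 probe sets counted as higher had its largest difference between the MPTP mice. Of 12 Ptpn3 probe sets, the others did not meet the rule.

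The treatment labels were not used to divide the arrays, and a linear model over the 4 treatments asked whether the same genes differed between treatments beyond the spread between mice of a group. Limma called 0 of 16342 probe sets (0.0%) over the 4 groups by its F-test, with 607 at an unadjusted p under 0.05 (3.71%). It also called 0 (0.0%) for each MPTP-treated group against control, with 312 for acupoint needling (1.91%), 988 for non-acupoint needling (6.05%) and 652 for MPTP alone (3.99%) at an unadjusted p under 0.05. Of the 29 choroid plexus genes, 28 passed the filter on dim probe sets for this model. For Ttr the difference from control was 2.95 (SE 1.69, adjusted p = 1.00) in acupoint mice, 4.59 (SE 1.69, adjusted p = 0.77) in non-acupoint mice and 2.00 (SE 1.69, adjusted p = 0.93) in MPTP mice, by limma. For Kcnj13 it was 2.52, 5.09 and 2.20 in the same order (SE 1.86 each). In the acupoint and MPTP groups, mouse 1 was Ttr-rich and mouse 2 Ttr-poor. The 28 choroid plexus genes had positive differences from control in every case, with medians of 0.84 for acupoint, 1.72 for non-acupoint and 0.66 for MPTP mice, and none passed the adjusted test. At an unadjusted p under 0.05 there were 1 of 28 for acupoint, 21 of 28 for non-acupoint and 0 of 28 for MPTP mice against control. These genes were chosen because all rich arrays lay above all poor ones. Both non-acupoint mice were rich and both controls poor, so a positive non-acupoint difference was fixed for all 28. Mouse 1 of the acupoint and MPTP groups lay above both controls by the same choice. The counts for these genes are therefore no separate support for a treatment difference. Without MPTP mouse 2, limma called 518 probe sets by the F-test and 1607 for MPTP against control, where MPTP mouse 1 alone stood for its group and was assumed to vary like the others.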

How the data were processed

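The values were the log2 expression values deposited by the authors, made with Affymetrix Expression Console and RMA per the submitters' processing notes (versions not given in the sources used here). The scanner files were not used here. Of 35557 probe sets, 21789 had 1 gene symbol (19938 genes), 1621 had several and 12147 had none, and probe sets without exactly 1 symbol were left out of the main comparison. The members and lists were chosen with earlier results of these data known. List members stand for their brightest probe set. Named genes were the largest differences in each direction, list members with textbook roles and the genes outside the lists with the largest smallest difference. SE is that of the difference between 2 means of 4 arrays. Treatments were compared with limma 3.58.1 in R 4.3.3, in 1 fit of 4 groups on 16342 probe sets with a mean above the 25th percentile, with Benjamini-Hochberg adjustment at 0.05. Both scripts were tested on simulated data. With 8 arrays, their number limits the precision. Nothing says whether mice of a group were processed separately, so p-values measure only the spread between these samples.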

Additional observations from a re-analysis of the deposited data

Results flagged for a closer look

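A single array lay far from the other 3 of its set in 3 of 44 sets of list medians, where chance gives about 1 in 20. All are relative to the mean of the Ttr-poor arrays on the log2 scale. For hippocampal genes in the Ttr-rich arrays, MPTP mouse 1 was at 0.361. For microglia genes in the Ttr-rich arrays, MPTP mouse 1 was at -0.418. For cortical excitatory neuron genes in the Ttr-poor arrays, acupoint mouse 2 was at -0.258.

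The Ttr-rich minus Ttr-poor difference between mice of 1 treatment had opposite signs in the MPTP and acupoint pairs for 7 list medians. In 3 of them both values were at least 0.1 from 0, and this difference was not tested. Ependymal genes were at -0.153 in the MPTP pair and 0.199 in the acupoint pair. Vessel genes were at 0.184 and -0.105 in that order, and myelin genes at 0.525 and -0.113. The other 4 were red blood cell, habenula, cortical and immediate early genes.

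Outside the named probe sets, 16 of 13768 with no symbol or several were higher in the Ttr-rich arrays by the same rule (0.116%), all 16 of them without a symbol, and the largest difference was 2.39.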

How the results depend on the processing

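Leaving out 1 array at a time gave 71 to 145 higher probe sets, against 85, and 0 to 42 lower, against 9. The count of lower ones was 0 without MPTP mouse 1, 6 without MPTP mouse 2, 16 without control mouse 2, 17 without acupoint mouse 2, 18 without non-acupoint mouse 2, 21 without control mouse 1, 40 without acupoint mouse 1 and 42 without non-acupoint mouse 1, and that of higher ones was 145 without non-acupoint mouse 1. With both MPTP mouse 1 and non-acupoint mouse 2 left out there were 46 higher and 1 lower. With treatment as a block there were 167 higher and 150 lower. Only the MPTP and acupoint groups held both kinds of array, so that setting rested on those groups, MPTP mouse 1 among them. A limit of 0.5 gave 340 and 185, and a limit of 2 gave 9 and 0. Probe sets at or above the median level gave 51 higher, quantile normalisation 14 lower and all probe sets 19 lower. No named gene changed sign under the alternatives run, but 6 small list medians did. Without MPTP mouse 1 and non-acupoint mouse 2, vessels were at -0.06 (0.04 with all arrays), border macrophages at -0.0025 (0.07), the habenula at -0.02 (0.11) and myelin at -0.01 (0.13). Without acupoint mouse 2, red blood cell genes were at 0.01 (-0.05), and without MPTP mouse 2, septum genes at -0.04 (0.13).

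Leaving out 1 mouse gave 0 to 518 calls in limma's F-test and 0 to 1607 for MPTP against control, both maxima without MPTP mouse 2, and 0 for the other contrasts. Same-numbered mice had correlations of deviations between -0.492 and 0.402. With 2 mice per group, these values cannot show whether mice of the same number shared a batch. The fit with the replicate block called 0 in each comparison, with 475 (F-test), 525 (MPTP), 292 (acupoint) and 869 (non-acupoint) at an unadjusted p under 0.05.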
